A study of Mus musculus with 4 samples.

Results

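The 3846 distal regions described here were open in both replicates of 2 stages of thymocyte development. ATAC-seq, an assay that tags accessible DNA with adapters by means of a transposase, had been run on wild-type C57BL/6J thymocytes from mice 5 to 7 weeks old, sorted and processed directly. The DN group (n = 2) was the CD4-CD8- double negative fraction sorted as CD25+CD44-/+, and the DP group (n = 2) was the CD4+CD8+ double positive fraction. The labels give wild type for all 4 samples and no agent, describe the measured material as nucleosome-free chromatin and do not say whether replicates came from separate or pooled animals. Their spread may therefore be technical. The series as a whole concerns the action of the Igk and Tcrb enhancers in developing lymphocytes.

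Regions were chosen by the presence of peaks, so that presence is not a finding. Overlapping peaks of the 4 deposited lists (chromosomes 1 to 19 and X, at least 1 bp shared) formed 107607 merged regions, of which 7951 (7.39%) held a peak from every list. A region was called distal when its midpoint lay more than 1 kb from both ends of every protein-coding gene span. This left 3846 regions, 48.4% of those in all 4 lists and 4.03% of the 95317 distal regions of any list. The other 4105 regions in all 4 lists lay at gene ends. For comparison, 2506 distal regions were in both DN lists and neither DP list (DN-only), and 5892 were in both DP lists and neither DN list (DP-only).

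Open chromatin far from gene starts includes enhancers, insulators and unannotated promoters. Enhancers bind lineage transcription factors and can act on a gene over long distances, and many become accessible in one cell type only. In the thymus, DN cells rearrange Tcrb, the gene of the T cell receptor beta chain, and signals from the pre-T cell receptor then carry them to the DP stage, where the alpha chain is rearranged. ATAC-seq peaks give the place and extent of accessibility, not which of these elements a region is.

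Within the distal regions, 580 (15.1%) overlapped a 300 base window around an annotated transcription start (250 bases before it and 50 after, from RefSeq, build GRCm38.p6, the assembly behind mm10). A start can lie more than 1 kb from a gene end where a gene has several promoters, or where only a noncoding transcript starts. The windows belonged to 611 genes, 420 coding and 191 for long noncoding RNAs. The 250 bases before the start are shown for 5 of them, chosen because their genes act in T cells, in DNA repair or in chromosome architecture, because the open region covered all 250 bases, and because they hold a match to a motif searched. They are, in order, windows of Gata3, a T cell lineage factor, at chr2:9878601-9878850 on the minus strand; Cd247, the zeta chain of the T cell receptor complex, at chr1:165788431-165788680 on the plus strand; Egr2, a factor induced by receptor signals, at chr10:67537316-67537565 on the plus strand; Trp53bp1, which acts in DNA end joining, at chr2:121271408-121271657 on the minus strand; and Wapl, which releases cohesin from DNA, at chr14:34673678-34673927 on the plus strand. Sequences run 5′ to 3′ along the gene, and capitals mark the motif matches given after them.
Gata3: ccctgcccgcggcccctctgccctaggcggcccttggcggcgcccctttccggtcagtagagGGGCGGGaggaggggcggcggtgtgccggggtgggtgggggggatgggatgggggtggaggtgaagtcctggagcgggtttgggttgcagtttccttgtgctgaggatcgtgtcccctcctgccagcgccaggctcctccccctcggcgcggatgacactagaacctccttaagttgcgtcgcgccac
Cd247: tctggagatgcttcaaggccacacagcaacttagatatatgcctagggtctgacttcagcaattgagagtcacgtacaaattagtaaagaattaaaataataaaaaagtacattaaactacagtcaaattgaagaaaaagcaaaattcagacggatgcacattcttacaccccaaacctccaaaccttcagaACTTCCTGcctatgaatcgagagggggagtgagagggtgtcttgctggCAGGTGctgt
Egr2: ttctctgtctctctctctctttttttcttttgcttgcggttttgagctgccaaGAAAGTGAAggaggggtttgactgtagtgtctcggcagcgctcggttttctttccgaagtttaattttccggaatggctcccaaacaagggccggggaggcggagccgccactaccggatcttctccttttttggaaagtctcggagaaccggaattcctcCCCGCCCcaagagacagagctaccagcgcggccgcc
Trp53bp1: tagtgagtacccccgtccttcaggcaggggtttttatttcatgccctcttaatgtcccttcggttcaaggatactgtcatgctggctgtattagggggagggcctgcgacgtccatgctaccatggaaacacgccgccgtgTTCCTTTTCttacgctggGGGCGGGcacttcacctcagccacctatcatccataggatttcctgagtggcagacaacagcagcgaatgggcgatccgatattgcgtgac
Wapl: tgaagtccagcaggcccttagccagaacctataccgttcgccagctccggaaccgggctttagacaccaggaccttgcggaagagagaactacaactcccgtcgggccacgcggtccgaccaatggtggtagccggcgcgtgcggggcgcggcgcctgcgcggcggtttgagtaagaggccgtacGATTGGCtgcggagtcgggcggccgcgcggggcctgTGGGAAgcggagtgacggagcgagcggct

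The capitals in the Gata3 window are a match to GGGCGGG, the core bound by SP and KLF factors. The Cd247 window holds the ETS form CAGGAAGT, on the minus strand of the gene, and the E-box CAGGTG. Those of Egr2 and Trp53bp1 each hold the SP and KLF core and the IRF pattern GAAANNGAA. The Wapl window holds GATTGGC, the form read by NF-Y, and TGGGAA, read by IKZF proteins. All motifs were searched on both strands, 1 window of 300 bases per region, and matches to different motifs may share bases. A match is a string of letters and no measurement of binding.

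Over the 580 windows of the distal regions, GGGCGGG was present in 45.2%, against 53.9% of gene-end windows, 37.3% of DP-only windows, 13.6% of the 59 DN-only windows and 25.7% of all 32618 annotated start windows. GATTGGC was present in 12.6%, against 16.1% at gene ends, 5.29% in DP-only regions and 6.86% in all windows. The promoter form of the ETS motif, CCGGAAGT, was found in 7.76%, between the 9.6% of gene-end windows and the 3.92% of all windows. The short GATA form AGATAA was found in 4.83%, against 4.68% at gene ends, 8.47% in DN-only regions, 9.19% in DP-only regions and 11.2% of all windows. Base composition also differed between the classes. The median GC content was 59.7% in windows of the distal regions and 62% at gene ends. It was 59% in DP-only regions, 51.7% in DN-only regions and 53% over all windows. The part of GC content in the motif shares was not tested. RUNX (TGTGGTT) stood at 5.34% against 5.29% of all windows, and the lymphoid ETS form CAGGAAGT at 4.66% against 8.47% in DN-only, 6.41% in DP-only and 3.35% of all windows. The CTCF core was matched in 3.1% of these windows, 2.45% at gene ends, 5.29% in DP-only regions, 0 of the 59 DN-only windows and 1.41% of all windows. No other sequence of the regions was used here.

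Start windows were rarer among distal regions held by fewer lists. They lay in 0.753% of distal regions held by 1 list, 4.3% of those held by 2, 8.66% of those held by 3 and 15.1% of those held by all 4. The share of regions that were distal at all ran the other way, from 96.1% of regions in 1 list through 81.6% and 68.2% to 48.4%. By stage, start windows lay in 2.35% of DN-only and 6.09% of DP-only distal regions, and in 78.7% of gene-end regions in all 4 lists. Regions in more lists were also longer, with a median merged length of 350, 550, 650 and 750 bp for distal regions in 1, 2, 3 and 4 lists, so a longer region had more chance to touch a window. The part of length in the shares was not tested. Most of the distal regions, 3266 (84.9%), touched no annotated start.

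**Figure D1:**
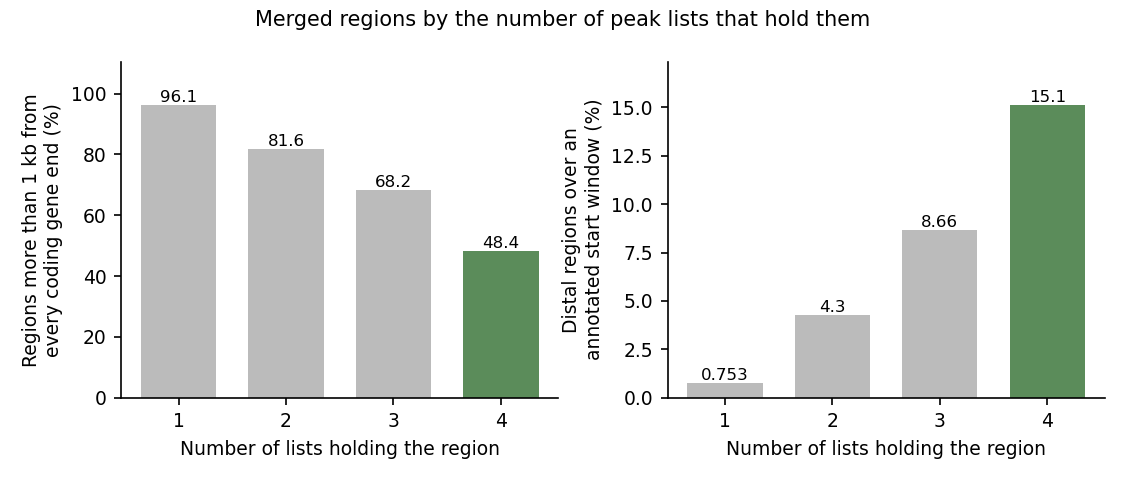
Bars give, for merged regions held by 1, 2, 3 or 4 peak lists (x axis), the percent that were distal (left) and the percent of the distal ones over an annotated start window (right). Green bars are regions in all 4 lists: 48.4% were distal, and 15.1% of those overlapped a start window.

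Other noncoding genes were present among the distal regions in small numbers. Transfer RNA genes, read by RNA polymerase III, lay under 28 regions (0.728%), which held 40 of the 408 annotated tRNA genes. The corresponding shares were 0.292% at gene ends, 0.0399% in DN-only and 0.305% in DP-only regions. Small nuclear RNA genes lay under 11 regions and miRNA hairpins under 9. Long noncoding RNA genes overlapped 15.9%, a share of 13.3% at gene ends, 11.5% in DN-only and 14.3% in DP-only regions. Reads from near-identical copies, as tRNA and small nuclear RNA genes have, may not be assignable to 1 copy, and how such reads were treated is not given in the sources used here.

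Of the distal regions, 2107 (54.8%) lay inside a protein-coding gene span and 1739 outside. The share inside was 43.1% for DN-only and 54.4% for DP-only distal regions. The median distance to the nearest gene end was 20824 bp (quartiles 6634 and 57685), against 51552 bp for DN-only and 18578 bp for DP-only regions. More than 100 kb from any gene end lay 14% of the regions in all 4 lists, 35.6% of the DN-only and 13.6% of the DP-only ones. Position relative to genes was thus close to that of DP-only regions by each of these 3 measures, a description of lists with no test. At the threshold, 34 members lay 1000 to 1100 bp from a gene end and 50 gene-end regions 900 to 1000 bp from one. The nearest inside was a region by Il23r at 1007 bp, followed by Basp1 and Jund at 1011 bp, and the nearest outside were Ascl4 and Trim41 at 999 bp.

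The DN 2 list set the size of this group of regions. It held 33131 peaks, against 38808 in DN 1, 39718 in DP 1 and 70385 in DP 2. As many as 3209 distal regions were missing from DN 2 alone, against 721 missing from DN 1 alone, 1015 from DP 1 and 368 from DP 2. Without DN 2 the count of distal regions in the remaining lists was 7050, in place of 3846. Depth is unknown, since only peaks are listed, and a missing peak cannot be told apart from too few reads. As a check on the sort, peaks nearest to Il2ra, which encodes CD25, numbered 8 and 2 in DN 1 and DN 2 and 9 in each DP list. Cd4 had 1 and 0 peaks in the DN lists and 4 and 3 in the DP lists, and Cd8a had 0 in both DN lists and 5 and 6 in the DP lists.

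Covered width, the bases of a region under the peaks of 1 list, was not used by the rule and differed between lists. Its median over the 3846 regions was 600 bp in DN 1, 550 bp in DN 2 and 650 bp in both DP lists. Both DP medians were above both DN medians. The mean was 575 ± 35.4 bp in DN and 650 ± 0 bp in DP (SD, n = 2 each), a difference of 75 bp with an exact two-sided permutation p of 0.33, the smallest that 2 against 2 samples can give. At gene-end regions in all 4 lists the medians were 700 and 600 bp in DN and 800 and 850 bp in DP, a difference of 175 bp with the same exact permutation p of 0.33. Over whole lists the median peak width was 400, 350, 450 and 400 bp in DN 1, DN 2, DP 1 and DP 2. How far differences in depth or in peak calling between lists set the widths was not tested.

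**Figure D2:**
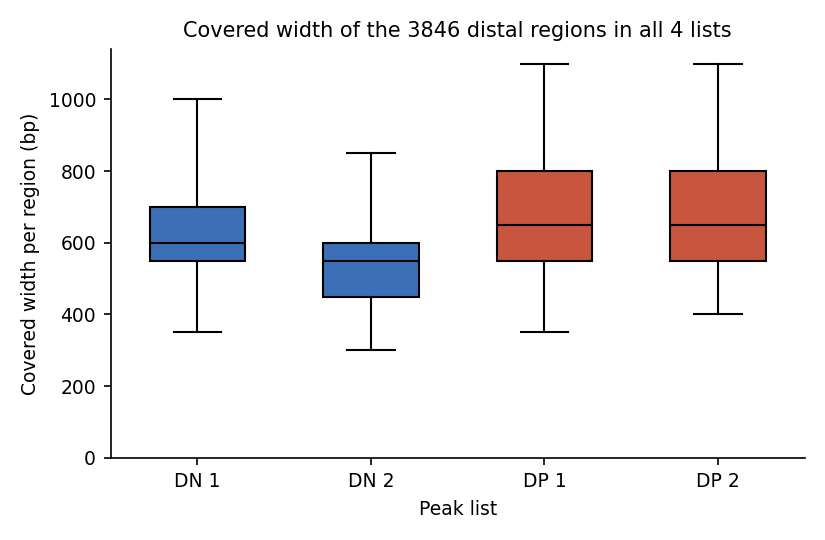
Box plots of covered width in bp (y axis) of the 3846 distal regions in each peak list (x axis; DN blue, DP red). Boxes span the quartiles, lines mark the medians (600, 550, 650 and 650 bp) and whiskers reach the 5th and 95th percentiles.

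Region by region, both DP widths exceeded both DN widths in 1455 of the 3846 distal regions (37.8%), against a background of 47.2% over all 7951 regions in all 4 lists and 55.9% at gene ends. The reverse order was seen in 266 (6.92%), against a background of 4.49% and 2.22% at gene ends. The groups overlapped in the remaining 2125 (55.3%), and 36 had the same width in every list. Without DN 2 the counts were 3482 and 1014 over 7050 regions, a single DN width then being set against both DP widths. Distal regions over a start window had wider DP peaks in 49.8% of 580 and wider DN peaks in 2.76%. Those without a start window had wider DP peaks in 35.7% of 3266 and wider DN peaks in 7.65%.

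**Figure D3:**
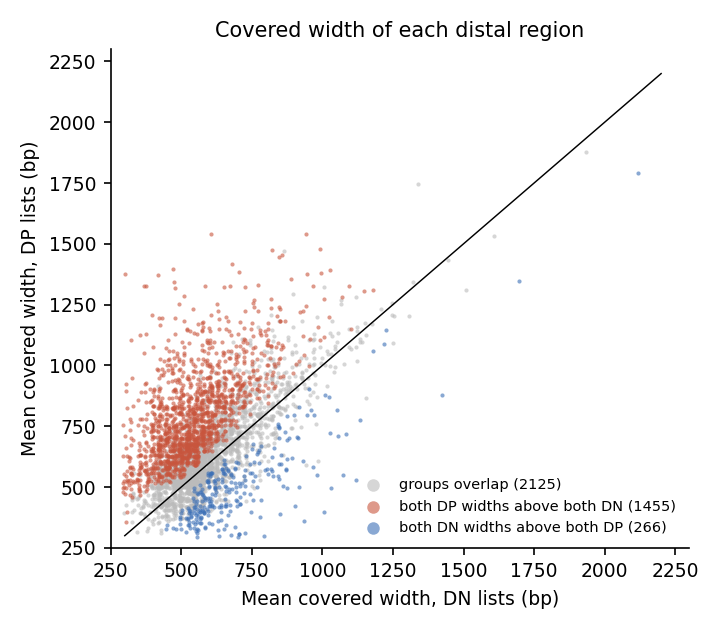
Mean covered width over the 2 DN lists (x axis, bp) against the 2 DP lists (y axis, bp) for each of the 3846 distal regions, with random shifts of up to 10 bp to separate points. Red marks the 1455 regions with both DP widths above both DN, blue the 266 with the reverse and grey the 2125 whose groups overlapped; the line marks equal width.

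By the authors' deposited p-values, used to rank peaks within their own list, the distal regions ranked high in every list and below the gene-end regions. The median region stood at percentile 82.7 of DN 1, 79.9 of DN 2, 76 of DP 1 and 86.8 of DP 2, with tied peaks at their middle rank. Gene-end regions in all 4 lists stood at 89.7, 86.3, 91.9 and 97.8. The smallest p that the lists hold (1e-12) was reached by 7.8, 3.69, 12.1 and 15.2% of the distal regions in DN 1, DN 2, DP 1 and DP 2, against 24.9, 13.2, 43.2 and 51.9% of the gene-end regions. In all 4 lists at once it was reached by 84 distal regions, 33 of them over a start window. At the other end, 5.56, 14.7, 5.85 and 3.3% of the distal regions in DN 1, DN 2, DP 1 and DP 2 stood at the largest p of the list. Some widths given below, in DN 2 and in other lists, stood at this largest p. Among them were widths of 300 bp, the narrowest that a peak can have.

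The 5 regions with the largest gap toward DP lay in Lcp1, Cd247, Sertad2 and Pik3r1 and over the noncoding Gm4258. In Lcp1, which encodes the actin-bundling protein plastin of white blood cells, the region at chr14:75178151-75179650 was 300 bp wide in both DN lists and 1450 and 1300 bp in the DP lists. In Cd247, and nearer by gene end to Pou2f1, the region at chr1:165844451-165845800 measured 450 and 300 bp in DN and 1350 and 1300 bp in DP. In Pik3r1, the regulatory subunit of phosphoinositide 3-kinase, chr13:101693851-101695250 measured 550 and 300 bp in DN and 1350 and 1400 bp in DP. The other two of the 5 widest gaps lay in Sertad2, at chr11:20631451-20632850, with 550, 400, 1400 and 1400 bp in DN 1, DN 2, DP 1 and DP 2, and over Gm4258, 162159 bp from the nearest coding gene end, at chr1:137900101-137901300, with 300, 350, 1100 and 1100 bp. The low values belonged to the DN lists in each of them, and the groups did not overlap, as the choice of these regions fixes. In Cd247 and Pik3r1 the DN 2 width of 300 bp was the narrowest possible and stood at the largest p of that list. Over Gm4258 both DN widths stood at the largest p of their lists.

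Gaps toward DN were smaller. The Robo1 region, chr16:72662851-72664000, covers annotated starts of Robo1, an axon guidance receptor, and of the noncoding Gm29908. It measured 1150 and 1100 bp in DN and 500 and 550 bp in DP. In Asph, chr4:9630451-9631500 measured 1050 and 1000 bp in DN and 500 bp in both DP lists. A region near Rngtt, the RNA capping enzyme, at chr4:33586451-33587600, measured 1100 and 1050 bp in DN and 550 bp in both DP lists. The remaining regions of the 5 lay near Scrg1, at chr8:57435301-57436700 (1100, 900, 400 and 400 bp), and in Zfp978, at chr4:147336451-147337850 (850, 750, 300 and 300 bp). Near Scrg1 and in Zfp978 both DP widths stood at the largest p of their lists.

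At Tcrb, 6 distal regions were open in all 4 lists. Receptor gene segments are not annotated as protein-coding genes, so a region over a segment itself can count as distal. The region over Trbd2 and the Trbj2 segments, chr6:41541351-41543600, at 2250 bp the second longest of the 3846, measured 1500 and 1350 bp in DN and 800 and 950 bp in DP. The region over Trbd1 and Trbj1-1, chr6:41532551-41534000, measured 1350 and 900 bp in DN and 800 and 750 bp in DP. At both D segments, where rearrangement starts, each DN width was above each DP width. The region at chr6:41554051-41555200 lies between Trbc2 and Trbv31, the interval that holds the Tcrb enhancer. It measured 1000 and 750 bp in DN and 950 and 850 bp in DP, and its groups overlapped. Variable segments carried the regions at Trbv12-1, with 900, 400, 900 and 950 bp in DN 1, DN 2, DP 1 and DP 2, and Trbv12-2, with 950, 600, 700 and 850 bp. The last lay at the Trbv1 end of the locus, with 550, 350, 550 and 550 bp. Both variable segments had overlapping groups, with DN 2 the lowest. DNA that a cell deletes when it rearranges Tcrb can give no reads, and its part in the widths was not tested.

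The 6 regions of Tcrb stood among 49 distal regions of any list, beside the 4.03% of all distal regions that were in all 4 lists. Tcra and Tcrd held 0 of 85, of which 28 were DP-only. Tcrg held 0 of 13 and Igl 0 of 3, too few to tell from that share. Igh held 3 of 160, with 52 DP-only, and Igk 3 of 101. Of those in Igk, chr6:70709201-70709800 and chr6:70714151-70714800 lay between Igkv3-1 and Igkj1, where the variable part of the locus meets the joining segments. The first measured 500, 300, 550 and 600 bp in DN 1, DN 2, DP 1 and DP 2, and the second 500, 500, 650 and 600 bp. Both were wider in each DP list than in each DN list, an order seen in 47.2% of all regions in all 4 lists. The DN 2 width of 300 bp stood at the largest p of that list. The other Igk region, chr6:67565601-67566600, measured 600 and 400 bp in DN and 300 and 450 bp in DP, with overlapping groups. Its DP widths both stood at the largest p of their lists.

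**Figure D4:**
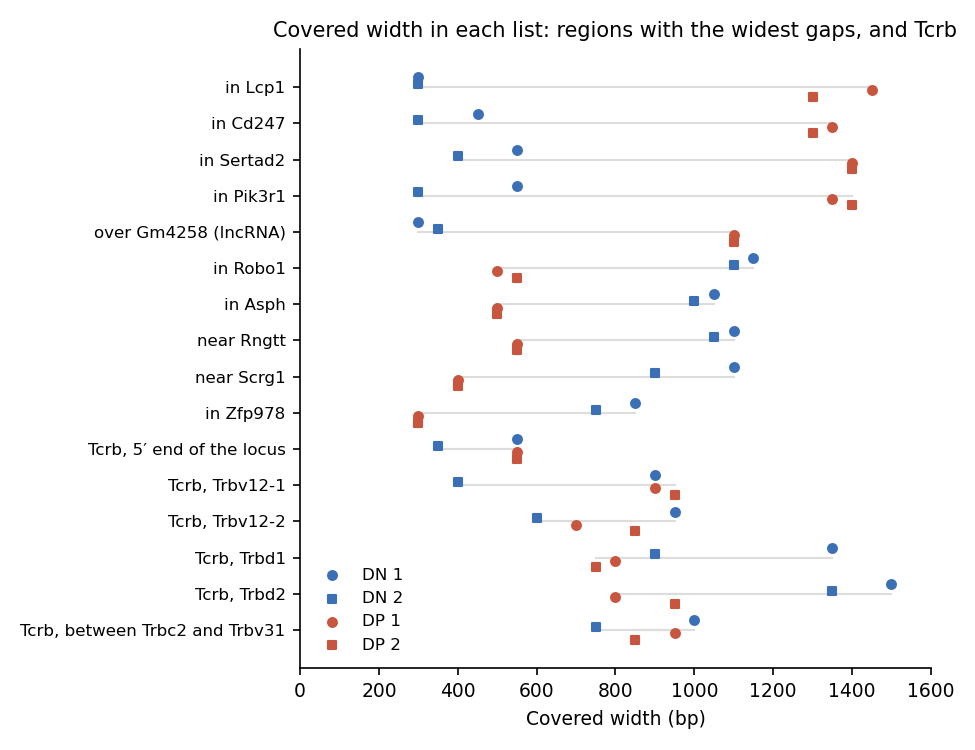
Covered width in bp (x axis) in each list (DN 1 and DN 2 blue, DP 1 and DP 2 red) for the 5 distal regions with the largest gap toward DP, the 5 toward DN and the 6 at Tcrb. The Trbd2 region sits at 1500 and 1350 bp in DN and 800 and 950 bp in DP.

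To name genes, each region was assigned to the nearest protein-coding gene end within 100 kb, which 3309 regions (86%) had. They fell to 2489 of 21627 protein-coding genes, a background of 11.5% of genes with at least 1. Of these genes, 1933 had 1 region, and 4 had 7. Among those 4 were Nrip1, a nuclear receptor corepressor, Gm51877 and Adgrl2, and genes with 6 included Nfia, D16Ertd472e, Tnfrsf1b, Bach1 and Atp10a. Distal regions of any list assigned to these genes numbered 34 for Nrip1, 30 for Adgrl2 and Nfia, 37 for Atp10a, 23 for Bach1, 17 for D16Ertd472e, 11 for Tnfrsf1b and 10 for Gm51877. The 7 regions of Nrip1 ran over chr16:76202001-76447950. Both DP widths exceeded both DN widths in 3 of the 7, beside 37.8% of the 3846 distal regions and 47.2% of all regions in all 4 lists. The widest change among these 3 was at chr16:76354101-76355150, with 550 and 600 bp in DN and 1050 and 1000 bp in DP. Assignment by distance does not show which gene a region acts on. It can also give a region inside a gene span to a neighbour, or leave the region unassigned.

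Of 36 transcription factor genes of the T lineage, 17 (47.2%) had a distal region in all 4 lists, beside the 11.5% of all genes. Of the 361 distal regions of any list that fell to these genes, 9.42% were in all 4, beside 6.24% over all genes. The factors with most were Ets1, a founding ETS family member active in lymphocytes, and Ikzf2, which encodes Helios, with 4 each, followed by Gata3 and Nfkb1 with 3. Lef1 and Ikzf1 had 2, and Bcl11b, needed for T cell commitment, had 1. Without DN 2 the list's count was 26, beside 18.6% of all genes. With the top 50% of each list Gata3 kept a count of 3, while Ets1 had 2, Ikzf2 and Nfkb1 had 1 and Ikzf1 had 0.

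At Gata3 the 3 regions lay inside the gene or just outside it. The one over the start shown above, chr2:9878351-9878900, measured 450 and 400 bp in DN and 550 bp in both DP lists. Its neighbour chr2:9879151-9880000 measured 600 and 550 bp in DN and 850 and 700 bp in DP. The last, chr2:9889001-9889850, lay upstream of the gene on its minus strand, 1472 bp from the gene end and over the noncoding 9230102O04Rik. It measured 600 and 300 bp in DN and 750 and 850 bp in DP. All 3 regions were wider in each DP list than in each DN list. That order was seen in 37.8% of the 3846 distal regions and 47.2% of all regions in all 4 lists. Gata3 had no DP-only distal region.

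The regions of Ets1 and Ikzf2 showed no such common order. In Ets1, chr9:32695551-32696350 measured 500 and 300 bp in DN and 750 bp in both DP lists, and chr9:32615751-32616450 upstream measured 500, 550, 650 and 700 bp. In contrast, chr9:32705851-32706600 measured 650 and 600 bp in DN and 650 and 450 bp in DP. Of the Ikzf2 regions, chr1:69688701-69689500 measured 650, 550, 750 and 700 bp in DN 1, DN 2, DP 1 and DP 2, and chr1:69453851-69454550 measured 600, 550, 400 and 650 bp. Within Ikzf1, which encodes Ikaros, chr11:11725151-11726600 measured 650 and 300 bp in DN and 1350 bp in both DP lists. The 300 bp in DN 2 was a peak of the narrowest width, at the largest p of that list. The Bcl11b region, chr12:107927801-107928450, measured 650 and 350 bp in DN and 650 and 600 bp in DP, with overlapping groups.

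In genes of the T cell receptor complex and its proximal signals, 8 of 24 (33.3%) had a region, beside the 11.5% of all genes. Of their 182 distal regions of any list, 7.69% were in all 4, beside 6.24% over all genes. Ptprc, which encodes the phosphatase CD45, Prkcq, the kinase PKC-theta, and Rasgrp1, a Ras activator, had 3 each. The Ptprc regions were wider in both DP lists at chr1:138154101-138155000 (400 and 300 bp in DN, 750 and 800 bp in DP) and chr1:138191451-138192500 (600 and 400 bp in DN, 1000 and 900 bp in DP). The adaptor gene Lcp2 had a region at chr11:34063651-34064550 with 300 and 450 bp in DN and 800 and 900 bp in DP. The region over the Cd247 start shown above, chr1:165788401-165789050, measured 500 and 300 bp in DN and 650 and 550 bp in DP. Plcg1, a phospholipase of the same pathway, had 550 bp in both DN lists and 600 and 700 bp in DP at chr2:160733001-160733750, groups set apart by 50 bp, the step of the peak grid. Without DN 2, 14 of the 24 genes had a region, beside 18.6% of all genes.

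Among 20 coreceptor, adhesion and migration genes, 6 (30%) had a region, beside the 11.5% of all genes. Cd69, an early activation marker, Cd44, an adhesion receptor that DN cells lose, and Itga4, an integrin chain, had 3 each. The Cd69 region at chr6:129284151-129285000 was nearly level across lists, at 750, 700, 800 and 700 bp. Its other regions measured 1100, 800, 1250 and 1250 bp (chr6:129237501-129238750) and 550, 300, 300 and 650 bp (chr6:129273501-129274150). In Cd44, chr2:102848801-102849450 measured 300 and 350 bp in DN and 550 and 600 bp in DP. Both of these DN widths stood at the largest p of their lists. Cxcr4 and S1pr1, receptors that guide migration, had 2 each, and Ccr9 had 1, with 500 and 300 bp in DN and 750 and 850 bp in DP. Of 20 cytokine genes, 2 (10%) had a region, close to the 11.5% of all genes, and 15 had a DP-only distal region, which 15.5% of all genes had. Jak1, in the same list, held 2 regions inside its span that were not assigned to it. The Il2ra region, chr2:11636951-11637700, measured 550 bp in both DN lists and 600 and 500 bp in DP, with overlapping groups. Without DN 2, 9 cytokine genes had a region, beside 18.6% of all genes, and Il2ra had 4.

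The remaining lists are to be read beside the same 11.5% of all genes. Of 20 Notch pathway genes, 3 (15%) had a region: Rbpj, the DNA-binding partner of Notch, and the coactivators Maml2 and Maml3. Recombination and end-joining genes had 3 of 14 (21.4%), among them Dntt, the polymerase that adds bases at junctions, at chr19:41038751-41039600 with 450 bp in both DN lists and 850 and 650 bp in DP. Also in that list, Trp53bp1 (start window shown above) and Xrcc6 each held 1 region inside the span that was assigned elsewhere or not at all. They counted as genes without a region. In that list 10 of 14 genes had a gene-end region in all 4 lists, as had 8 of 12 housekeeping genes. The share of all genes with a gene-end region was not computed. Architecture and chromatin genes had 5 of 24 (20.8%), with 3 regions each for Wapl and for the DNA methyltransferase gene Dnmt3a, 2 for the cohesin subunit gene Stag2 and 1 each for Stag1 and Tet2. Dclre1c, which encodes Artemis, was nearly level, with 700, 700, 650 and 700 bp in DN 1, DN 2, DP 1 and DP 2. Cell cycle and survival genes had 7 of 22 (31.8%). Housekeeping genes, the reference list, had 5 of 12 (41.7%), and 20.8% of the 24 distal regions of any list that fell to them were in all 4. With the top 50% of each list, 2 of the 12 housekeeping genes, 13 of the 36 T lineage factors, 5 of the 24 receptor signalling genes and 5 of the 20 coreceptor and adhesion genes had a region, beside 7.89% of all genes.

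**Figure D5:**
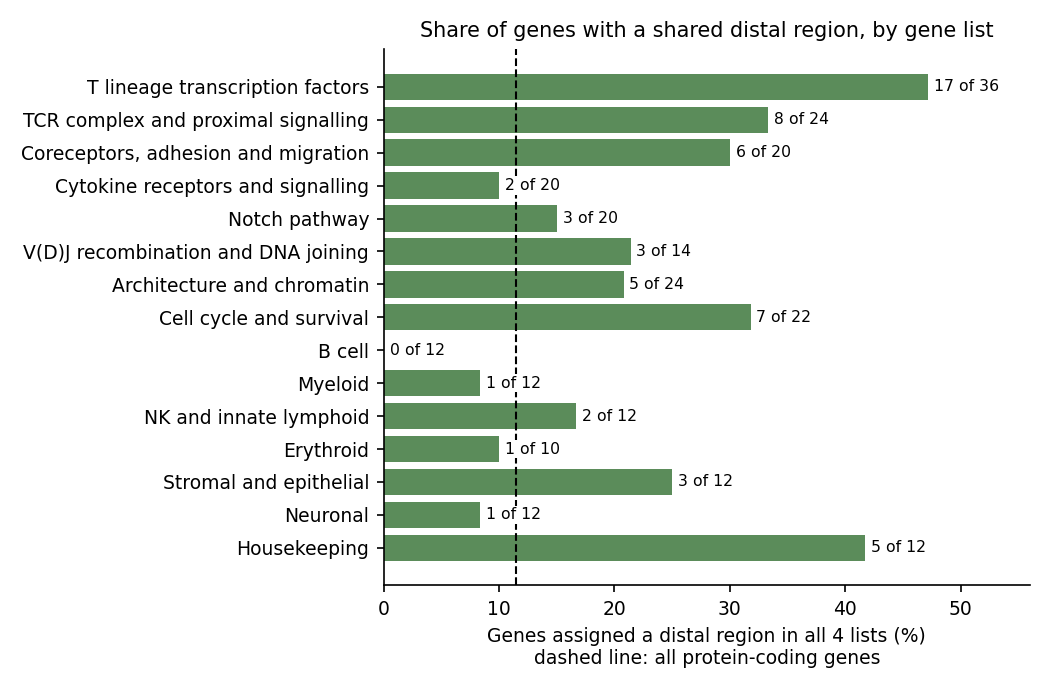
Bars give the percent of genes (x axis) in each of 15 gene lists (y axis) that were assigned a distal region in all 4 lists, with counts beside them; the dashed line marks 11.5% of all protein-coding genes. T lineage transcription factors reached 17 of 36 and housekeeping genes 5 of 12, and 0 of 12 B cell genes were assigned one.

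Most genes had no such region, the median over all 21627 being 0. No distal region in all 4 lists was assigned to Cd4, Cd8a, Cd8b1, Cd3e, Rag1, Rag2, Ptcra, Notch1, Il7r, Tcf7, Runx1, Runx3, Satb1 or Myb. DP-only distal regions, which 15.5% of all genes had, were assigned to several of them: 7 to Satb1, a chromatin organiser, 5 each to Runx1 and Cd8b1, 4 to Cd8a, 3 each to Runx3 and Tcf7, and 2 to Cd4. Bcl11b and Lef1 had 5 DP-only regions each, and Ets1 and Ikzf1 had 4 each, beside their shared ones. Without DN 2, Runx1, Tcf7 and Notch1 had 2 each and Satb1 and Rag2 had 1, and without DN 1 Cd8b1 had 1.

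Markers of other cells that a thymus holds were among the lists. A distal region in all 4 lists was assigned to 0 of 12 B cell, 1 of 12 myeloid (Fcgr3), 2 of 12 NK and innate lymphoid (Klrb1c with 4 and Rora with 1), 1 of 10 erythroid (Tal1), 3 of 12 stromal and epithelial (Cdh5, Epcam and Pdgfra) and 1 of 12 neuronal (Gria2) genes. Regions deep in long genes could go unassigned or to a neighbour, as did 2 inside the B cell gene Ebf1. The 4 regions of Klrb1c lay 7759 bp or more outside the gene, within a cluster of related receptor genes. Peaks of any kind nearest to the B cell markers numbered 9, 4, 10 and 16 in DN 1, DN 2, DP 1 and DP 2, and those nearest to the myeloid markers 5, 4, 19 and 17. The counts were 17, 14, 29 and 41 for NK and innate lymphoid, 5, 3, 5 and 11 for erythroid, 24, 13, 18 and 22 for stromal and epithelial, and 22, 24, 17 and 65 for neuronal markers. Against them stand 16, 11, 65 and 61 for the DP markers and 25, 6, 33 and 43 for the CD25-positive DN markers. The part of other cells in the regions was not tested.

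The 84 regions at the smallest p in every list are tied in rank, and the widest of them by mean width are given here. The widest was in Crlf2, a cytokine receptor chain, at chr5:109556701-109558850, with 2150, 2100, 2000 and 1600 bp in DN 1, DN 2, DP 1 and DP 2. A region at chr2:98666301-98667550, 1035253 bp from the nearest gene end, measured 1250 bp in every list, and its neighbour chr2:98664801-98665450 measured 650 bp in every list. On chromosome 17, chr17:39847401-39848900 lies over Rn18s-rs5, a pseudogene related to ribosomal RNA, and the noncoding AY036118, and measured 1450, 1450, 1450 and 1400 bp. Its neighbour chr17:39843051-39845000 measured 1900, 1950, 1900 and 1850 bp. Others of the widest 10 lay over starts of Cetn3 (1250, 1250, 1150 and 1250 bp), Lrif1 (1350, 1150, 1200 and 1200 bp) and Arrdc3 (1200, 1250, 1150 and 1150 bp). Of the 84 regions at the smallest p in every list, 41 had widths within 100 bp of each other. Ribosomal RNA genes have near-identical copies. No regions of repeated sequence were excluded here, and the part of reads from repeated copies in the widths of any of these regions was not tested.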

How the data were processed

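ATAC-seq peak lists of 2 DN and 2 DP thymocyte samples were used. The submitters' processing notes name mm10, Bowtie2 and Picard, without versions. The peak caller PeakDEck is known only from the names of the lists. Not given in the sources used here are its settings, the read filters and any shift of insertion sites. The deposited p-value of each peak is the authors' own and was used only to rank peaks within a list. Lists were called per sample, and without read counts no depth or interval could be computed. Peaks start on a 50 bp grid and span at least 300 bp.

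The distal regions, the 15 gene lists (262 genes), the motifs and the rule for named genes were chosen with earlier results of these data known. Named genes were the 15 with most regions, list members, fixed stage genes and receptor loci; named regions were the best ranked (ties by mean width), longest, farthest, densest and those with the largest gaps in width. Some genes the rule names are not described. Gene spans, start windows and sequences came from RefSeq (GRCm38.p6), whose table held no strand or exons, so exon and UTR status was not assigned. A CTCF motif search over all regions was planned and not run, because no genome was used here. The exact permutation test over samples was the single test. Alternatives were the top 50% of each list, lists cut to the shortest length, 50% overlap, merging within 250 bp, gene ends within 500 bp, 2500 bp or 10 kb, every RefSeq gene, each list left out and the replicate number as a block. Start window shares, gene list counts and single genes under these settings were added after the data were examined. On simulated lists, 400 of 400 planted distal regions were recovered and 0 of 200 planted gene-end regions were called distal. There, 200 of 200 planted regions with wider DP peaks were found among 216 called. These counts hold for the planted regions only. How the rules act near the 1 kb limit or at small gaps in width was not tested. Scripts ran under Python 3.11.15 with pandas 2.3.3, numpy 2.4.6, matplotlib 3.10.9 and scipy 1.17.1.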

Additional observations from a re-analysis of the deposited data

How the results depend on the processing

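The number of distal regions in all 4 lists was 2422 with the top 50% of each list, and 4203 to 7050 when a list was left out, the highest without DN 2. The percent of shared regions that were distal was 41.8 with the top 50%, 46.5 at the shortest list length, 52.5, 43.2 and 32.4 with gene ends taken as 500 bp, 2500 bp and 10 kb, 42.9 with every RefSeq gene, and 50.3 to 53.4 with a list left out. The percent inside a gene span was 56.8, 52.1 and 48.6 at those 3 distances and 57.7 with every RefSeq gene. Genes assigned a region numbered 1554 at 10 kb, and 2636 to 4024 with a list left out. Regions wider in DP numbered 954 with the top 50%, 916 at 10 kb, and 1787 to 3482 with a list left out (2789 without DN 1, 3482 without DN 2, 2247 without DP 1). Those wider in DN numbered 114 with the top 50%, and 438 to 1014 with a list left out (438 without DN 1, 1014 without DN 2, 799 without DP 1, 839 without DP 2). Leaving out a list asks for 3 lists in place of 4, which raises counts by construction. The percent over a start window was 18.7 with the top 50%, 17.8, 12.6 and 9.5 at the 3 distances, 11.2 with every RefSeq gene, and 12.5 to 13.9 with a list left out; it stayed above the DN-only and DP-only percents in each setting run. The causes of the other changes were not tested.

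The DP minus DN difference in median width ran from 25 to 125 bp over the settings and reversed in none, with no p below 0.33 possible. With the replicate number as a block it was 75 bp with an exact sign-flip permutation p of 0.5. Deviations of same-numbered samples correlated at 0.0393 over 3846 regions, so the numbers were not shown to pair the samples. Over all settings, 60 summary values stayed within the limits set and 37 moved. The limits were the binomial interval for percents and 1.5 times for counts. The width difference was held only to its sign, so its changes in size count among the values that stayed. The CTCF motif share and its alternatives were not run. Unknown depth limits every statement on a missing peak.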

Other observations

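Distal regions in all 4 lists were in part clustered. With gaps of up to 25 kb, 969 of 3846 (25.2%) lay in 437 clusters, 71 of which held 3 or more, and 2877 stood alone. The densest cluster lay in Sfi1, a centrosome gene, at chr11:3184151-3198650, with 7 regions whose summed widths were 7150, 8250, 6400 and 7350 bp in DN 1, DN 2, DP 1 and DP 2. The next, over the tumour necrosis factor receptor genes Tnfrsf1b and Tnfrsf8 at chr4:145210501-145268700, also held 7, with 4900, 3200, 4950 and 4550 bp. Clusters of 5 lay at D16Ertd472e, Tbc1d2b and Hnrnpf. The 7 regions of the Sfi1 cluster are those assigned to Gm51877. No regions of repeated sequence were excluded here, and the part of reads from repeated copies in that cluster was not tested. By chromosome, the share of regions in all 4 lists that were distal ran from 33.6% on chromosome 11 to 56.6% on chromosome 3.

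Zinc finger genes with a Zfp symbol, a family chosen after the values were seen, took 2.27% of the assigned distal regions in all 4 lists, against 3.75% of assigned gene-end regions in all 4 lists, 1.67% of DN-only and 1.32% of DP-only distal regions. They make up 1.85% of protein-coding genes.

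The distal region farthest from a gene end was chr1:101901851-101902950, 1411801 bp from Cntnap5b. It measured 850, 700, 700 and 900 bp in DN 1, DN 2, DP 1 and DP 2 and stood at percentiles 98.2 and 98.9 of the DN lists and 66.2 and 80.1 of the DP lists. A region 1253758 bp from Zeb2, at chr2:46370801-46371600, stood at 98.2 and 98.9 in DN and 14.6 and 66.9 in DP. Lists differ in length, so these percentiles place a region within its list and show no change between stages.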
